A study of Mus musculus with 6 samples.

Results

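Oligodendrocytes are the glia that wrap axons of the central nervous system in myelin, and the 32 genes described here mark their lineage from the dividing precursor to the myelinating cell. The members were given as a list of gene symbols and matched to Ensembl genes. All 32 were in the deposited table of 52636 genes, and all 32 passed the filter on low counts that left 20473 genes to test. They fall into 4 precursor genes, 3 factors of the whole lineage, 7 genes of newly formed oligodendrocytes, 2 maturation factors and 16 genes of myelinating cells.

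The animals were wild-type C57BL/6J mice whose right eyelids were kept sutured for 3 days, with primary visual cortex (V1) taken on postnatal day 28. Left V1, contralateral to the closed eye, and right V1, ipsilateral to it, came from the same 3 mice, so there were 3 contralateral and 3 ipsilateral libraries of total RNA. Every mouse was deprived, and V1 of an undeprived mouse was not analysed here. Both hemispheres also receive input from both eyes, so the ipsilateral side is a within-animal comparison and not an untreated control.

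Precursors divide, carry the platelet-derived growth factor receptor alpha and the NG2 proteoglycan, and stay spread through the cortex into adult life. Those that leave the cell cycle pass through a short premyelinating stage and then either die or switch on, under Sox10 and Myrf, the genes of myelin proteins and lipids. In juvenile sensory cortex this production of new oligodendrocytes is under way, and neuronal activity is known to influence it.

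Libraries held 17849253 to 32213500 reads assigned to genes, and members took 0.321% to 0.552% of them. A member had between 46 and 50608 reads in a library. Levels within a gene are given as CPM, reads scaled to a common library size. Levels between genes are given as RPKM, which also divides by the exon length in kilobases. Levels of mt-Rnr1, a mitochondrial ribosomal RNA, split the libraries into a low set (contralateral 1, ipsilateral 1 and ipsilateral 3, 14.5 to 35.9 CPM) and a high set (contralateral 2, contralateral 3 and ipsilateral 2, 2243 to 5801 CPM). This split follows the hemispheres in part, as most contralateral libraries are in the high set and most ipsilateral ones in the low set. It also separates the 2 libraries of mouse 3. Values within each set are therefore given beside the main comparison. The tissue is bulk cortex, in which fewer cells of a type and less RNA per cell cannot be told apart.

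On the RPKM scale the myelin structural genes were the most abundant members. Mbp, the myelin basic protein that holds the cytoplasmic faces of the sheath together, led with a mean of 174 RPKM and ranked 83 among all genes tested. Cnp (99.1 RPKM), whose enzyme keeps cytoplasmic channels in the sheath open, and Mobp (97.2 RPKM), a small myelin protein, followed with ranges over the 6 libraries that overlapped each other. Cldn11 (86.4 RPKM), the claudin of myelin tight junctions, and Mal (85.5 RPKM), a proteolipid of myelin membrane transport, also did not differ beyond their spread. The newly formed stage was led by Bcas1 (27.1 RPKM) and Gpr17 (23.6 RPKM). The precursor genes lay between 2.61 RPKM for Cspg4 and 8.83 RPKM for Pdgfra, and Tcf7l2 was the lowest member at 1.69 RPKM. Genes of all 5 groups were thus measured in every library, 15 of 32 members above 10 RPKM.

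**Figure D1:**
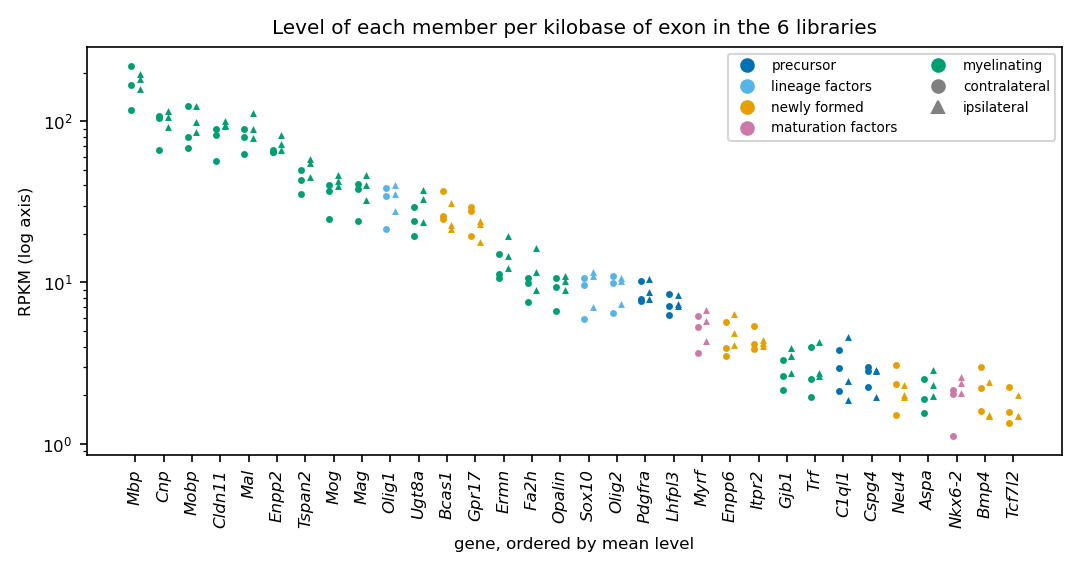
Level of each of the 32 members in the 6 libraries, in RPKM on a log axis, ordered by mean; circles are contralateral and triangles ipsilateral libraries, and colours give the stage group. Levels run from 174 RPKM for Mbp to 1.69 RPKM for Tcf7l2, and the hemispheres overlap for every gene but Cldn11.

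Promoter sequence is shown for a pair of myelinating members: Cldn11, which had the smallest p in the comparison below, and Mog, whose window held a motif match. The p-values of Tspan2 and Ugt8a lay between those of Cldn11 and Mog. The window of Ugt8a and the more upstream of the 2 windows of Tspan2 held no match and are not shown. Each stretch is the 250 bases upstream of the RefSeq start in GRCm38.p6, written 5′ to 3′ on the strand of the gene. Cldn11 lies at chr3:31149670-31149919 (plus strand) and Mog at chr17:37023399-37023648 (minus strand). Capitals mark the only match to the motifs searched.
Cldn11: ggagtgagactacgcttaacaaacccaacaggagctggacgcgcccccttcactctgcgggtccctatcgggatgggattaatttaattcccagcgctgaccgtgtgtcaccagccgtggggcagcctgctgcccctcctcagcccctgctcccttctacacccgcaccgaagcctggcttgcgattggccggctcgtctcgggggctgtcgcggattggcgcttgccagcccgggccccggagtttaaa
Mog: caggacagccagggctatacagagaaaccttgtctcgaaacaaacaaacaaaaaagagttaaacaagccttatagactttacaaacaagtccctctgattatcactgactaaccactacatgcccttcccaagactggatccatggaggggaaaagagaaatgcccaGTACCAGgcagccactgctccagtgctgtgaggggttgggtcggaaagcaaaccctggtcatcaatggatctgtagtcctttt
The capitals in Mog, which begin 83 bases before its start, match the core CTGGTAC bound by Myrf, read on the other strand. The motifs searched on both strands were CTGGCAC or CTGGTAC for Myrf, ACAAAG or ACAATG for Sox factors and CAGCTG for Olig factors. RefSeq windows existed for 22 of the 32 members. A Myrf core stood in the window of 3 of those 22 genes, all 3 myelinating, against 5.93% of all 32851 promoter windows. A Sox core stood in 10 of 22 members, among them 7 of 12 myelinating genes, against 25.2% of all windows, and an Olig core in 2 of 22 against 13.0%. Some members have several windows and so more chances of a match. Counted by window, as for all genes, a Myrf core stood in 4 of 29 member windows, a Sox core in 13 and an Olig core in 2. These are matches of letters and show no binding.

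The comparison between hemispheres asked whether closing an eye for 3 days went with a different level of oligodendrocyte RNA in the cortex opposite that eye. No member passed the test. In edgeR's quasi-likelihood test with Benjamini-Hochberg adjustment over all 20473 genes, 0 of 32 members passed an adjusted p under 0.05, against 0.127% of all genes. With the mouse as a block it was again 0 of 32, against 0.894% of all genes, and in DESeq2 0 of 32 against 0.567%. The smallest adjusted p was 0.804 without the block, for Cldn11, and 0.148 with it, for Fa2h, and over all alternatives no member went below 0.131. At an unadjusted p under 0.05, 1 member was lower, Cldn11, against 2.87% of all genes, and 0 were higher against 3.28%. With the block 9 members were lower at that level (6.94% of all genes) and 2 higher, Gpr17 and Bcas1 (6.30% of all genes). Of those 9, 8 were myelinating genes and the other was Enpp6.

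The stages nevertheless lay on different sides of 0 in these libraries. Median log2 fold changes, contralateral against ipsilateral, were -0.03 over the precursor genes, -0.13 over the lineage factors, 0.13 over the newly formed genes, -0.29 over the maturation factors and -0.27 over the myelinating genes. Over all genes tested the median was 0.03, and 44.6% of genes were negative. All 16 myelinating members were negative, from -0.39 for Fa2h to -0.08 for Mbp, and 6 of 7 newly formed members were positive. Without the block, standard errors of single members ran from 0.12 for Enpp2 to 0.33 for C1ql1, and errors quoted for members below are from that fit. Errors with the block could be much smaller, such as 0.11 for Sox10 and 0.093 for Gpr17, against 0.23 and 0.17 without it. The genes of a stage share the cells they come from and are not independent of each other.

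**Figure D2:**
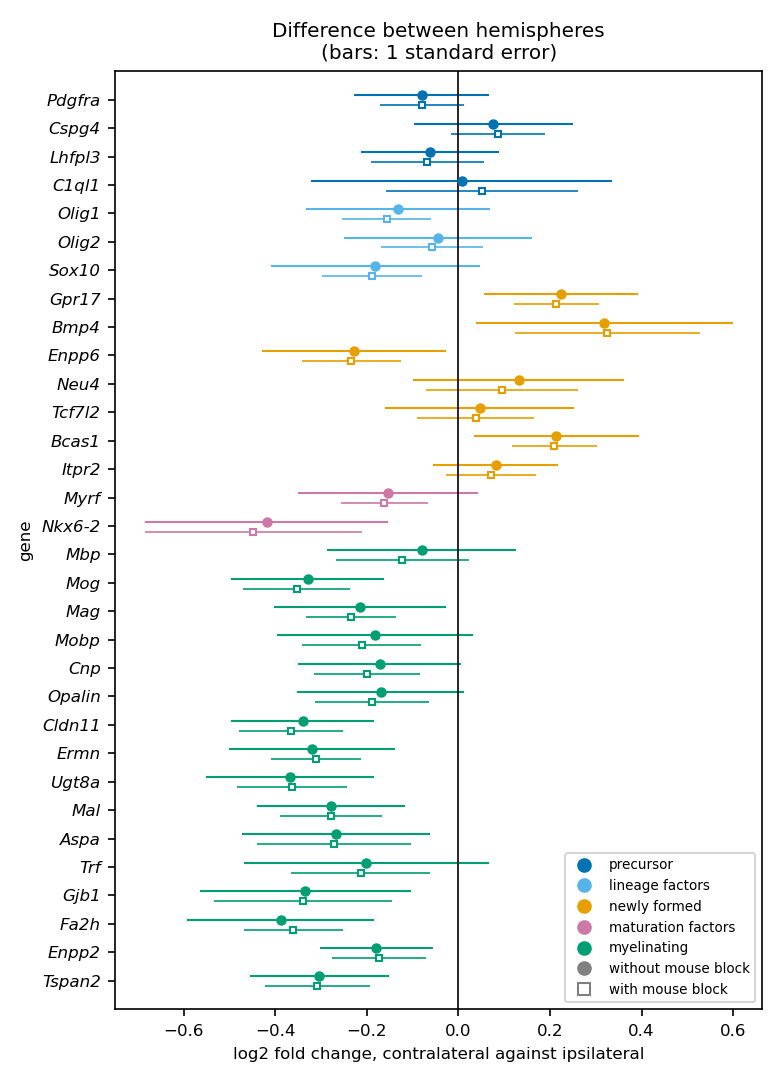
Log2 fold change of each member, contralateral against ipsilateral V1, from edgeR without (filled circles) and with the mouse as a block (open squares); bars are 1 standard error and colours give the stage group. The 16 myelinating genes lie left of 0, from -0.39 to -0.08, and 6 of the 7 newly formed genes right of it, and no member passed an adjusted p under 0.05.

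Precursor genes did not differ between the hemispheres beyond their error. Pdgfra, the growth factor receptor that keeps precursors dividing (chr5:75152292-75198215), stood at 77.1, 102 and 79.3 CPM in contralateral libraries 1 to 3 and at 87.3, 106 and 79.6 CPM in the ipsilateral ones. The groups overlapped, and both libraries of mouse 2 were the highest of their side. Its log2 fold change was -0.08 (SE 0.15, adjusted p = 0.943 without and 0.749 with the block in edgeR). Cspg4, the NG2 proteoglycan, stood at 33.5, 35.8 and 26.6 CPM contralaterally and at 33.9, 34.0 and 23.1 CPM ipsilaterally. Its log2 fold change was 0.08 (SE 0.17, adjusted p = 0.955 without and 0.755 with the block in edgeR). Here mouse 3 was the lowest on both sides. Lhfpl3, a tetraspan membrane protein enriched in precursors, had a log2 fold change of -0.06, and C1ql1, a secreted C1q-like protein, one of 0.01 with the largest error of all members. Bulk tissue does not show whether the RNA of Pdgfra and Cspg4 came from precursors alone.

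The lineage factors followed the library more than the hemisphere. Olig2, the helix-loop-helix factor that specifies the lineage, stood at 24.1, 26.8 and 15.7 CPM contralaterally and at 24.7, 26.0 and 17.9 CPM ipsilaterally. Sox10, the factor that drives myelin genes with Myrf, stood at 28.8, 26.3 and 16.1 CPM contralaterally and at 29.8, 31.7 and 19.1 CPM ipsilaterally. Both genes were lowest in both libraries of mouse 3, and the groups overlapped. The log2 fold changes were -0.04 for Olig2 (SE 0.21, adjusted p = 0.978 in edgeR), -0.18 for Sox10 (SE 0.23, adjusted p = 0.911) and -0.13 for Olig1, the partner of Olig2 (SE 0.20, adjusted p = 0.934). With the block the adjusted p in edgeR was 0.864, 0.478 and 0.516 in that order. The median of the 3 changed sign between the sets, from 0.18 in the low to -0.36 in the high mt-Rnr1 libraries, and was 0.08 without contralateral library 3.

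The only members higher contralaterally in every mouse, 3 of 32 against 19.2% of all genes, were genes of newly formed oligodendrocytes. In the wider lists given below, 1 of 28 mature, 1 of 20 precursor and 2 of 12 newly formed genes were also higher in every mouse. Gpr17, the receptor that marks cells on the verge of differentiation, stood at 144, 152 and 100.4 CPM contralaterally and at 121, 125 and 92.7 CPM ipsilaterally. Each contralateral library exceeded its partner, by 0.25, 0.27 and 0.11 log2 CPM in mice 1 to 3, although the groups overlapped through mouse 3. Its log2 fold change was 0.22 (SE 0.17, adjusted p = 0.860), and 0.333 was the adjusted p with the mouse as a block in edgeR. Bcas1, a marker of premyelinating and early myelinating cells, stood at 96.9, 140 and 92.8 CPM contralaterally and at 80.8, 117 and 85.9 CPM ipsilaterally. Its differences were 0.26, 0.26 and 0.11 in mice 1 to 3, close to those of Gpr17, and mouse 2 was the highest on both sides. The log2 fold change was 0.21 (SE 0.18, adjusted p = 0.870 without and 0.342 with the block in edgeR).

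Bmp4, a bone morphogenetic protein transiently made at this stage, had the largest positive value of the members. It stood at 4.93, 6.64 and 3.55 CPM contralaterally and at 3.35, 5.38 and 3.28 CPM ipsilaterally. Its log2 fold change was 0.32 (SE 0.28, adjusted p = 0.871 without and 0.517 with the block in edgeR). The groups overlapped, and the 3 differences were 0.55, 0.30 and 0.11. Enpp6, a choline phosphodiesterase and marker of the newest myelinating cells, lay on the other side of 0, at 25.1, 36.7 and 22.5 CPM contralaterally and 26.4, 40.8 and 31.3 CPM ipsilaterally. Lower in each mouse, it had a log2 fold change of -0.23 (SE 0.20, adjusted p = 0.871 without and 0.367 with the block in edgeR). Neu4, a sialidase, had 0.13, Itpr2, an endoplasmic calcium release channel, 0.08 and Tcf7l2, a Wnt effector, 0.05, each with mice on both sides of 0. Tcf7l2 is also a marker of thalamic neurons and Bmp4 is made by other brain cells, so neither is particular to the lineage in bulk tissue. The median of the 7 genes was 0.21 in the low mt-Rnr1 set and -0.04 in the high set, 0.26 with the block and without mouse 3, and -0.07 without contralateral library 2.

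The maturation factors were both negative. Myrf, the membrane-bound factor needed for myelin gene expression, stood at 45.2, 52.9 and 31.4 CPM contralaterally and at 49.2, 57.4 and 37.4 CPM ipsilaterally. It was lower contralaterally in each mouse and lowest on both sides in mouse 3. Its log2 fold change was -0.15 (SE 0.20, adjusted p = 0.913 without and 0.489 with the block in edgeR). Nkx6-2, a homeobox factor of myelinating cells, had the most negative value of all members, -0.42 (SE 0.27, adjusted p = 0.832 without and 0.434 with the block in edgeR). It stood at 4.08, 3.86 and 2.12 CPM contralaterally and at 3.94, 4.92 and 4.51 CPM ipsilaterally. This low gene owed its value to mouse 3, where the difference was -1.06, against 0.05 in mouse 1 and -0.35 in mouse 2.

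Among the myelinating genes, Cldn11 (ENSMUSG00000037625, chr3:31149920-31164324) was the only member whose groups did not overlap. It stood at 168, 154 and 106 CPM in contralateral libraries 1 to 3 and at 178, 188 and 176 CPM in the ipsilateral ones. Contralateral V1 was lower by 0.08, 0.29 and 0.72 log2 CPM in mice 1 to 3, so the 1 low library of mouse 3 made most of the difference. Its log2 fold change was -0.34 (SE 0.16, adjusted p = 0.804 without and 0.161 with the block in edgeR). Over all genes 6.29% had non-overlapping groups with contralateral V1 lower, and 6.70% with it higher, where the members counted 1 and 0.

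Mog, the myelin oligodendrocyte glycoprotein on the outermost lamella, stood at 63.3, 68.7 and 42.3 CPM contralaterally and at 67.2, 78.9 and 72.7 CPM ipsilaterally. Only contralateral library 3 lay well below the others. The log2 fold change was -0.33 (SE 0.17, adjusted p = 0.818 without and 0.191 with the block in edgeR). Mag, the adhesion protein of the innermost lamella facing the axon, stood at 154, 166 and 98.4 CPM contralaterally and at 164, 188 and 133 CPM ipsilaterally. Both libraries of mouse 3 were the lowest of their side. The log2 fold change was -0.21 (SE 0.19, adjusted p = 0.871 without and 0.318 with the block in edgeR).

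Ugt8a, which makes galactosylceramide for the myelin membrane, stood at 109, 134 and 87.8 CPM contralaterally and at 107, 171 and 149 CPM ipsilaterally. It differed by 0.02 log2 CPM in mouse 1 and was lower contralaterally by 0.35 and 0.76 in mice 2 and 3. The log2 fold change was -0.37 (SE 0.18, adjusted p = 0.816 without and 0.192 with the block in edgeR). Opalin, a glycoprotein of the paranodal loops, stood at 19.6, 17.3 and 12.2 CPM contralaterally and at 20.1, 18.7 and 16.5 CPM ipsilaterally. Its log2 fold change was -0.17 (SE 0.18, adjusted p = 0.894 without and 0.546 with the block in edgeR). Mouse 3 was again lowest on both sides.

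Mbp, by far the most abundant member, did not separate the hemispheres. It stood at 1405, 1863 and 990.0 CPM in contralateral libraries 1 to 3 and at 1526, 1640 and 1336 CPM in the ipsilateral ones. The contralateral libraries held both the highest and the lowest value, and mouse 2 was higher contralaterally by 0.18 log2 CPM. The log2 fold change was -0.08 (SE 0.21, adjusted p = 0.962 without and 0.758 with the block in edgeR), and 0.12 without contralateral library 3.

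The other 10 myelinating members ranged from -0.39 to -0.17. Fa2h, which hydroxylates the fatty acids of galactosylceramide, had -0.39 (SE 0.20) and differed most in mouse 2 (-0.60). Gjb1, the connexin of oligodendrocyte gap junctions, had -0.33, Ermn, a cytoskeletal protein of late oligodendrocytes, -0.32, Tspan2, a tetraspanin, -0.30 and Mal -0.28. Aspa, which splits N-acetylaspartate to supply acetate for lipid synthesis, had -0.27 with mouse 2 on the other side (0.11). Trf, the iron carrier transferrin, had -0.20, Mobp -0.18, Enpp2, the lysophospholipase autotaxin, -0.18 and Cnp -0.17. Their adjusted p in edgeR lay between 0.815 for Tspan2 and 0.920 for Trf without the block. With the block it lay between 0.148 for Fa2h and 0.577 for Trf. Enpp2 and Trf are also strong genes of choroid plexus, whose other markers were near absent: 7 of 10 fell under the filter, Ttr among them, and the 3 tested summed to 3.69 to 4.54 CPM per library.

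Counted by mouse, 16 of 32 members were lower contralaterally in all 3 mice, against 17.3% of all genes, and 3 were higher in all 3, against 19.2%. Of the 16, 11 were myelinating genes, and the others were Olig1, Sox10, Pdgfra, Enpp6 and Myrf. The count goes by sign alone and includes differences near 0, such as -0.0022 for Mobp in mouse 2 and -0.0057 for Pdgfra in mouse 3. The 3 higher ones were Gpr17, Bmp4 and Bcas1. Genes made by the same cells are not independent, so the 16 are not separate observations. Left to mice 1 and 2, 16 members were lower in both, against 27.6% of all genes, and 4 higher in both, against 30.4%.

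The size of the difference varied between mice. The median difference of the myelinating genes was -0.07 log2 CPM in mouse 1, -0.22 in mouse 2 and -0.48 in mouse 3. Their summed level was 3610, 4474 and 2693 CPM in contralateral libraries 1 to 3 and 3805, 4593 and 3773 CPM in the ipsilateral ones. Contralateral library 3 was the lowest of the 6 for 24 of 32 members, including all 16 myelinating genes, against 11.3% of all genes. Ipsilateral library 2 was the highest for 18 members, 13 of them myelinating, against 11.4% of all genes. Without contralateral library 3 the median of the myelinating genes was -0.15, and that of all members 0.00 against -0.18 with it. The medians of the newly formed genes were 0.25, 0.27 and 0.08 in mice 1 to 3.

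**Figure D3:**
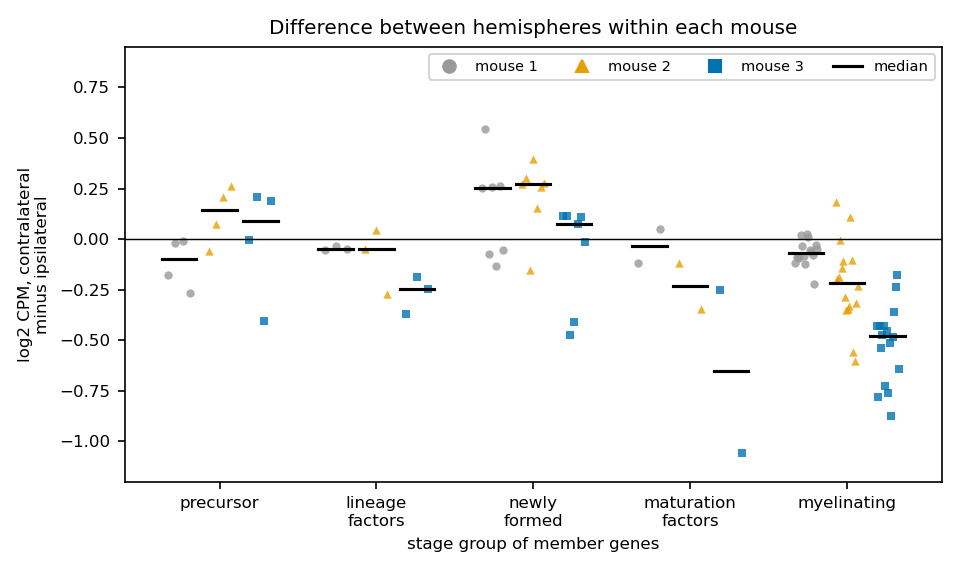
Difference of each member within each mouse, contralateral minus ipsilateral log2 CPM, by stage group; symbols are genes, shapes and colours are mice, and black bars are medians. The myelinating medians are -0.07 in mouse 1, -0.22 in mouse 2 and -0.48 in mouse 3, while the newly formed medians are 0.25, 0.27 and 0.08. Mouse numbers are names and have no order.

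**Figure D4:**
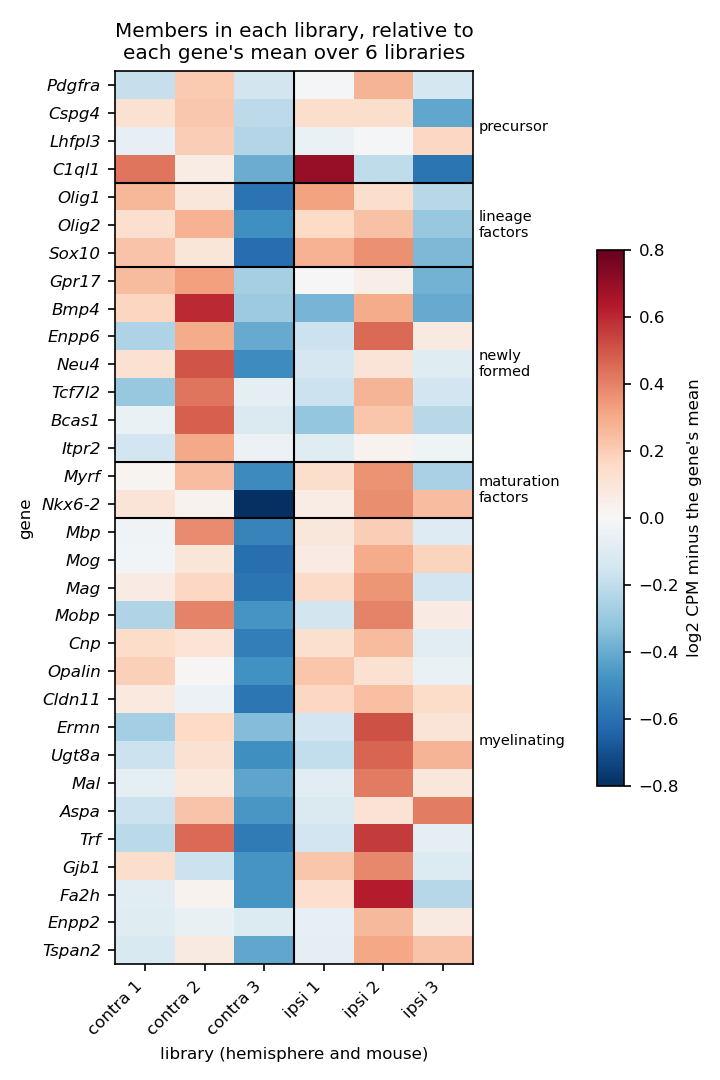
Log2 CPM of each member in each library minus the mean of that gene over the 6 libraries; rows are genes grouped by stage, columns are libraries, blue is below and red above the mean. The column of contralateral library 3 is the lowest for 24 of 32 members and that of ipsilateral library 2 the highest for 18.

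Contralateral library 3 was also the library with the most mt-Rnr1, at 5801 CPM, and its partner ipsilateral library 3 that with the least. Within the low mt-Rnr1 libraries the myelinating median was -0.10, and within the high ones -0.52. In each set a hemisphere has a single library, taken to vary like the others, and 0 of 32 members passed in either, against 0.172% of genes in the low and 0.131% in the high set. The smallest adjusted p was 0.134, for Fa2h in the high set (-0.84). With the set as a term in the fit the myelinating median was -0.31. The part of mt-Rnr1 in the low values of contralateral library 3 was not tested.

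In the fit over all libraries, wider lists of lineage genes had medians on the same side of 0 as the members of their stage. In single mice this did not hold for the newly formed list or for the precursor list. Of 28 tested further genes of mature oligodendrocytes 0 passed with or without the block, 24 were negative, and the median was -0.20. Contralateral library 3 was the lowest for 25 of the 28. Plekhh1 (-0.30), the orphan receptor gene Gpr37 (-0.31) and the protease gene Adamts4 (-0.31) had the smallest p of that list. Of 12 further newly formed genes 0 passed and the median was 0.08, against 0.03 over all genes tested, with 7 positive and 5 negative. Their medians were 0.14, -0.0044 and -0.16 in mice 1 to 3. Slc12a2, a chloride importer, lay at -0.19, Tmem163 at -0.23 and Tns3, a tensin, at 0.19.

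Of 20 further precursor genes 0 passed in either fit and the median was -0.08. By mouse their medians were -0.082, -0.049 and -0.087, where those of the 4 precursor members were -0.098, 0.14 and 0.091. Brinp3 (-0.32) and Nxph1 (-0.33), a neurexophilin, had the smallest p and were lower in each mouse, and Pcdh15, a protocadherin, lay at 0.18. Both Brinp3 and Nxph1 are also made by cortical neurons. Of 27 regulators and signals 0 passed and the median was -0.07. The smallest p belonged to Erbb4 (-0.35), the neuregulin receptor that interneurons carry too, Lingo1 (-0.41), a neuronal inhibitor of differentiation, and Pdgfa (-0.26), the ligand of Pdgfra. Lingo1 passed in at least 1 alternative fit (adjusted p from 0.0305 to 1.00). Of 15 genes of the axon-glia junction 0 passed and the median was -0.07, led by the juxtaparanodal potassium channel gene Kcna1 (-0.30), Omg (-0.29) and Cntn1 (-0.21).

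Of 18 further genes for the cholesterol, fatty acids and sphingolipids of myelin, 0 passed without the block and 5 fell with it, against 0.894% of all genes. Those that fell included Hmgcs1, an early enzyme of cholesterol synthesis (-0.64, adjusted p = 0.124 without and 0.00259 with the block in edgeR), Idi1 (-0.67, 0.227 and 0.0118), Sqle (-0.52, 0.281 and 0.0111) and Cyp51 (-0.49, 0.306 and 0.0111). These 4 act in the cholesterol pathway, which neurons and astrocytes run as well, and are not particular to oligodendrocytes. Over all alternatives the adjusted p reached 1.00 for each of the 4, and its lowest value was 6.55e-04 for Hmgcs1, 0.0114 for Idi1, 0.00828 for Sqle and 0.0111 for Cyp51. Hmgcs1 stood at 184 ± 12.1 CPM contralaterally and 288 ± 30.5 CPM ipsilaterally (SD, n = 3). Its differences were -0.68, -0.72 and -0.52 in mice 1 to 3. Those of Idi1 were -0.67, -0.48 and -0.87, and those of Cyp51 -0.51, -0.44 and -0.53. The galactolipid enzymes Ugt8a and Fa2h, both members, did not pass.

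Markers of other cells also differed between mice. Medians of 10 astrocyte genes were -0.13, 0.28 and 0.04 in mice 1 to 3 and those of 10 microglial genes -0.02, 0.43 and 0.13. Over the 3 mice, the medians were 0.04 for astrocytes and 0.16 for microglia, and 0 genes of either list passed. Medians of 10 genes of mural cells and fibroblasts were -0.62, 0.05 and 0.12 in mice 1 to 3 and -0.20 over the 3 mice. Of these 10 genes, 6 were negative and 4 positive, and 0 passed with or without the block. The summed astrocyte genes ranged from 9898 to 12402 CPM contralaterally and from 10222 to 10907 CPM ipsilaterally, and the microglial genes from 325 to 436 CPM and from 293 to 392 CPM. Among 10 markers of layer 6 and the subplate, the layer next to the white matter, the median was -0.22. In edgeR with the block Ccn2 (-0.83, adjusted p = 0.00849) and Tle4 (-0.41, 0.0393) fell and Col5a1 (0.48, 0.0203) rose, calls that were lost without the block (0.550, 0.525 and 0.491 in that order). The 10 markers summed to 257, 242 and 229 CPM in contralateral libraries 1 to 3 and 271, 245 and 238 CPM in the ipsilateral ones. Contralateral library 3 was the lowest for 3 of the 10 genes, and their median in mouse 3 was -0.04. Of 10 neuronal genes 7 were negative and the median was -0.23, with -0.15, -0.50 and 0.01 in mice 1 to 3, and contralateral library 3 was the lowest for 0 of them. Gad1, which makes GABA and is a gene of interneurons and not of all neurons, fell with the block (-0.56, adjusted p = 0.278 without and 0.00558 with it in edgeR). Of 10 layer 2/3 genes, with a median of -0.12, Lamp5 (-0.46, adjusted p = 0.548 without and 0.0329 with the block in edgeR) and Stard8 (-0.46, 0.511 and 0.0393) fell with the block and Otof (0.76, 0.161 and 4.89e-04) rose. Summed neuronal genes ranged from 6657 to 8056 CPM contralaterally and from 7982 to 8545 CPM ipsilaterally. The part of neuronal RNA and of the depth of dissection in the myelin values was not tested.

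Circular RNAs, the other readout of the same libraries, did not include any from the members. Of the 1488 deposited circRNAs 0 had a member as host gene, and 4.04% of all genes tested hosted at least 1. In edgeR 0 of 1468 tested circRNAs passed, which is 0% of them, with 52 at an unadjusted p under 0.05. The wider lists hosted 7 circRNAs, from Hdac2, Ank3, Pcdh15, Scn8a, Rras2, Nrg1 and Smarca4. The table lists circRNAs seen in every library, so rarer ones from members were not analysed here.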

How the data were processed

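Total RNA of V1 from 3 mice gave 6 libraries, made with a stranded kit per the labels' protocols. The authors deposited raw read counts per Ensembl gene with gene lengths, and raw back-splice counts per circRNA, per the file headers. Per the submitters' processing notes, GRCm38 was the build, and HISAT2, featureCounts, limma and DESeq2 were used, in roles the notes leave out. Which caller found circRNAs, how strand was treated and which annotation was counted is not given in the sources used here. Counts are therefore uncertain for members whose exons overlap a gene on the other strand (Pdgfra, Lhfpl3, Olig1, Gpr17, Bmp4, Bcas1, Nkx6-2, Cnp, Ermn, Enpp2 and Tspan2), and for Trf, Mobp and Pdgfra, which overlap a gene on the same strand. Per-library normalized circRNA values that the authors deposited were not used, and columns of other series numbered 0.

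Symbols came from GENCODE M21, which held 52489 of the 52636 genes, 95.2% with the same bounds. Counts were tested with edgeR 4.0.16 in R 4.3.3 (quasi-likelihood F test, TMM scaling, a filterByExpr minimum of 10 reads and 15 in total, Benjamini-Hochberg adjustment over all genes, threshold 0.05), first checked on simulated data. CircRNAs needed 2 reads in 3 libraries. Standard errors divide the size of the log2 fold change by the root of its F statistic. Log2 CPM used a prior count of 2, and the mt-Rnr1 sets a limit of 100 CPM. RPKM used the deposited lengths. DESeq2 1.42.0 and limma 3.58.1 were also loaded, and figures used matplotlib 3.10.9 in Python 3.11.15. DESeq2 gave an adjusted p for 15709 genes.

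Both libraries of a number come from the same mouse per the labels, so they are paired. Within mice, deviations from group means had correlations of 0.431, 0.0775 and 0.172 for mice 1 to 3, and contralateral library 2 correlated more with ipsilateral library 3 (0.177) than with its own partner. The labels give 1 library per hemisphere and mouse. Correlations of log2 CPM between libraries were 0.976 to 0.988. The comparison without the mouse block is the first one given, with the block beside it. Other alternatives were DESeq2, other scalings, no low-count filter, the mt-Rnr1 set as a term, each set alone and each library left out. The fit without mouse 3 was chosen after seeing the data. The members and all gene lists were chosen with earlier results of these data known. Values in every library are given for 14 members set by name, the members with the largest and smallest log2 fold change and any called member. Of the wider lists, called genes and the 3 with the smallest p are named, except for some whose values are not reported here. Promoter windows are from RefSeq.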

Additional observations from a re-analysis of the deposited data

How the results depend on the processing

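No alternative gave a called member: the count stayed at 0 lower and 0 higher with the replicate block, with DESeq2, under both other scalings, without the low-count filter, with the mt-Rnr1 set as a term, within either set and without any single library. The replicate block also changed no circRNA call, and with it the medians were -0.19 over all members and -0.28 over the myelinating genes. The sign of the myelinating median was negative in every fit, and the median lay nearest 0 within the low mt-Rnr1 libraries, at -0.10. With a library left out the median ran from -0.41 to -0.13, and it was -0.14 with the block and without mouse 3. These fits share libraries and are not independent of each other. Within the high mt-Rnr1 libraries medians were -0.37 (all members), -0.36 (lineage factors), -0.035 (newly formed) and -0.52 (myelinating), and the lineage factors were at 0.18 within the low ones. Leaving out a library moved the medians from -0.14 to 0.11 (precursor), -0.31 to 0.081 (lineage factors) and -0.067 to 0.32 (newly formed), the last at 0.26 with the block and without mouse 3.

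Single members changed sign as follows. Within the low set: Olig1 0.18, Olig2 0.17, Sox10 0.23, Tcf7l2 -0.15, Itpr2 -0.10, Myrf 0.055, Mag 0.045, Cnp 0.11, Opalin 0.090 and Gjb1 0.070. Within the high set: Cspg4 -0.13, Lhfpl3 0.00020, Bmp4 -0.093, Neu4 -0.035, Tcf7l2 -0.085 and Bcas1 -0.016. C1ql1 was at -0.011 with DESeq2 size factors, at -0.014 in DESeq2 and at -0.0045 without the filter, Olig2 at 0.0046 with total counts, and Tcf7l2 at -0.11 with the set as a term. With the block and without mouse 3, values were 0.10 for Lhfpl3, -0.012 for C1ql1, 0.0041 for Olig2, 0.031 for Mbp and 0.029 for Aspa. With a library left out, ranges across 0 were -0.22 to 0.041 for Pdgfra, -0.10 to 0.19 for Cspg4, -0.19 to 0.032 for Lhfpl3, -0.25 to 0.41 for C1ql1, -0.31 to 0.081 for Olig1, -0.20 to 0.15 for Olig2, -0.39 to 0.032 for Sox10, -0.12 to 0.36 for Neu4, -0.19 to 0.21 for Tcf7l2, -0.067 to 0.17 for Itpr2, -0.33 to 0.029 for Myrf, -0.33 to 0.12 for Mbp, -0.30 to 0.019 for Cnp, -0.33 to 0.0011 for Opalin and -0.54 to 0.064 for Trf. For Lhfpl3, Olig1, Olig2, Sox10, Myrf, Mbp, Cnp, Opalin and Trf the sign changed without contralateral library 3. The cause was not tested. Fits within a set, or without mouse 3, rest on fewer libraries. The other 432 member values and 78 medians kept their direction and side of the threshold or moved within the spread. Reads carry no molecular identifiers used here.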
